A study of Mus musculus with 11 samples.

Results

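St18, Myt1 and Myt1l are the members of the Myt family of zinc finger transcription factors, and their transcripts were followed in the main olfactory epithelium (MOE) of newborn wild type and Bcl11b knockout (KO) mice. They are 3 of 18194 genes that a probe set of the array named alone, and of its 45101 probe sets 9 belonged to them, 2 for St18, 2 for Myt1 and 5 for Myt1l. The genes were chosen by family and on the difference between KO and wild type signal in these same arrays, so that difference is described below with no test. The study asked which genes lie downstream of Bcl11b, a zinc finger transcription factor of olfactory sensory neurons (OSNs). Whole MOE was taken on postnatal day 0 from BALB/c pups of heterozygous parents, 5 wild type (all male) and 6 Bcl11b KO (4 male and 2 female, KO 3 and KO 6), with 1 array per preparation. The KO is a conventional one, so that Bcl11b was lacking in every tissue of the pup and not in OSNs alone.

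Myt family proteins carry clusters of a particular type of zinc finger, bind DNA in the nucleus, and recruit corepressors that hold histone deacetylases and a histone demethylase. Myt1l is known from forming neurons, where it keeps genes of other cell types and of the Notch pathway off, and it is used with other factors to turn fibroblasts into neurons. Myt1 was found through its binding to a myelin gene promoter, and Myt1 and St18 are also known from the endocrine cells of the pancreas. Pkmyt1, a cell cycle kinase with a similar name, is no member of the family.

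Signals are intensities on a linear scale, set by the authors so that GAPDH reads 10000 on every array. Median signals ranged from 56.6 to 85.7 on wild type arrays and from 62 to 86.5 on KO arrays. On its brightest probe set Bcl11b itself read 2694.3 to 4122.7 in wild type and 560.5 to 1249.8 in KO, with no overlap on any of its 4 probe sets. The ratio of the 3' to the 5' GAPDH probe sets, which goes up as RNA breaks down, ran from 1.82 to 2.70 and was highest on KO 3 (2.70) and KO 2 (2.42). The defining OSN markers were present: the summed signal of 14 immature OSN markers was 42065 to 52755 in wild type and 41873 to 52383 in KO.

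St18 was the member that differed between the groups. On its brighter probe set (1455123_at) the wild type arrays read 273, 329.3, 397.7, 279.4 and 367.6. The KO arrays ran from 585.8 to 824.5 with a median of 719. Every KO array lay above every wild type array. The means were 329 ± 54.3 (SD, n = 5) and 708 ± 85.1 (SD, n = 6), a KO over wild type ratio of 2.15 and a log2 difference of 1.07 ± 0.14 (SE).

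The dimmer St18 probe set (1436793_at) read 47, 59.1, 57.6, 55.3 and 40.9 on the wild type arrays. On the KO arrays it ran from 79.2 to 122.4 with a median of 90.7. Here too the groups did not overlap. The means were 52.0 ± 7.76 (SD, n = 5) and 96.5 ± 18.7 (SD, n = 6), a ratio of 1.86. The log2 difference was 0.72 ± 0.17 (SE). Log2 differences here are of signal + 16, and for dim probe sets this added constant makes them smaller than the ratio. In whole tissue, more cells with the transcript and more transcript per cell cannot be told apart.

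Myt1 was measured by a single probe set above the minimum signal. On that probe set (1422773_at) the wild type arrays read 156, 182.3, 145.4, 136.5 and 113.8, and the KO arrays ran from 112.2 to 240.1 with a median of 184. The groups overlapped: KO 1, KO 4 and KO 5 lay above all wild type arrays, while KO 3 lay below all of them. The means were 147 ± 25.2 (SD, n = 5) and 176 ± 49.7 (SD, n = 6), with a log2 difference of 0.21 ± 0.19 (SE). The other Myt1 probe set (1439365_at) had a mean signal of 9.11 over the 11 arrays, below the minimum of 20, and was left out.

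Myt1l was covered by 5 probe sets, all above the minimum signal. On the brightest (1436483_at) the wild type arrays read 1205.1, 1222.8, 918.6, 736.3 and 1004.9, and the KO arrays ran from 662.7 to 1342.8 with a median of 1129. The ranges of the groups overlapped almost fully, and the lowest and the highest value were both KO arrays (KO 2 and KO 1). The means were 1018 ± 204 (SD, n = 5) and 1053 ± 270 (SD, n = 6), with a log2 difference of 0.029 ± 0.19 (SE). On the other 4 the log2 difference was -0.040 (1421175_at), 0.15 (1430599_at), -0.19 (1460111_at) and -0.29 (1429738_at), with SE of 0.19 to 0.25. The probe sets of Myt1l thus did not share a direction, and on each of them the groups overlapped.

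**Figure D1:**
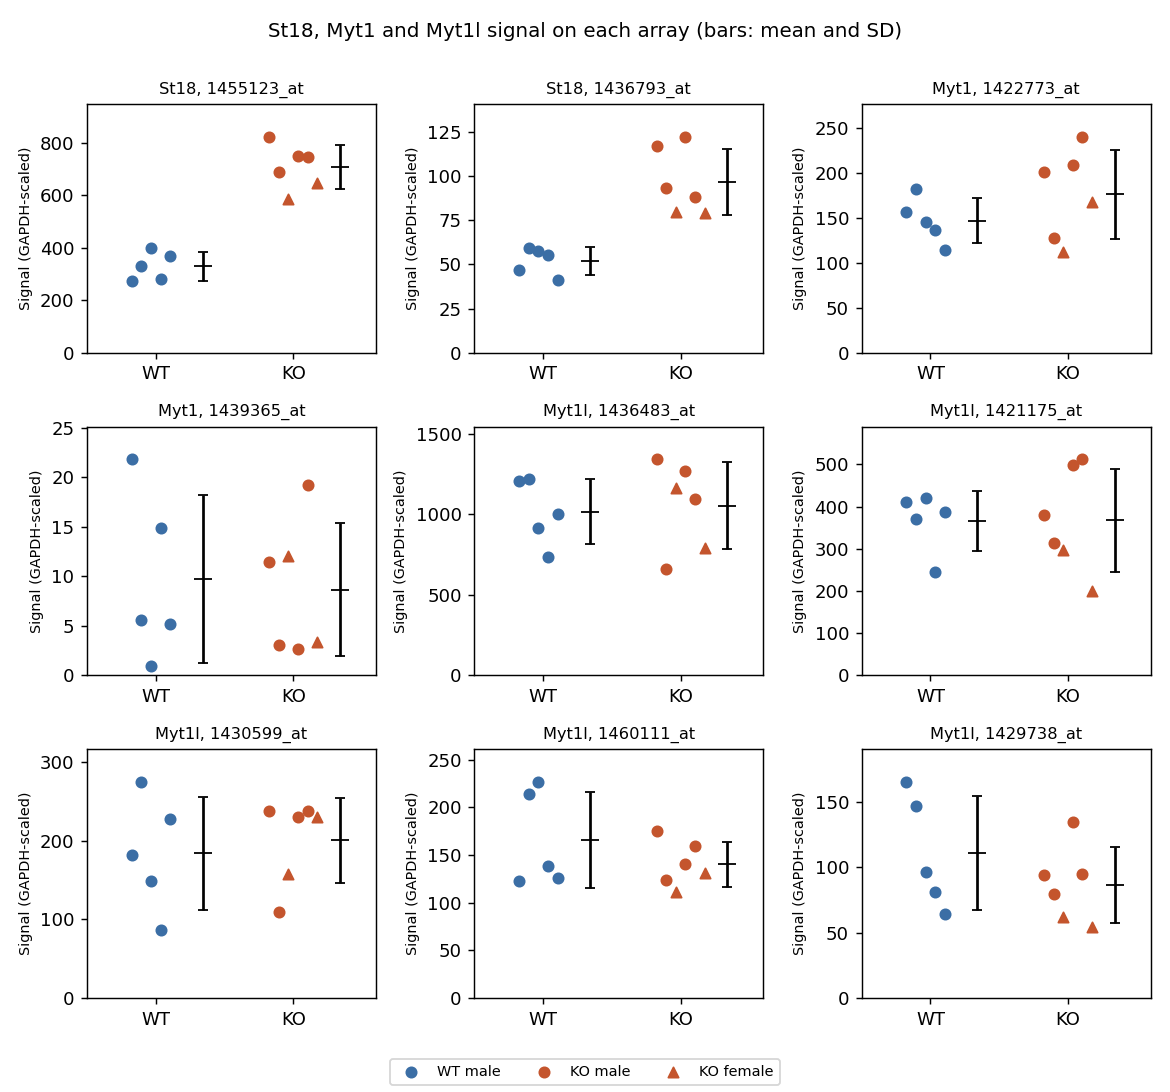
Signal (linear, scaled to GAPDH) on each of the 11 arrays for the 9 probe sets of St18, Myt1 and Myt1l; circles are males, triangles KO females, with bars for mean and SD of a group. On both St18 probe sets all KO arrays lie above all wild type arrays (585.8 to 824.5 against 273 to 397.7 on 1455123_at), while the groups overlap on every Myt1 and Myt1l probe set.

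Among all 33662 probe sets tested in limma, 0.455% had an adjusted p under 0.05 in either direction and 0.244% did so with a higher KO signal. Of the 8 tested probe sets of the family 1 did, the brighter one of St18. In 1.29% of all tested probe sets the groups did not overlap, and in the family this held for the 2 probe sets of St18. Since the genes were selected on this contrast, nothing is read from these counts. The log2 difference of St18 ranked 81 of 33662 among rises, and 49 of the 82 that passed, whereas 29.7% of probe sets had a larger difference in size than Myt1 and 88.1% than Myt1l.

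The gap between members on the same array is free of the scaling of that array, apart from the added pseudocount. Taken as a difference of log2(signal + 16), wild type arrays had 1.08 ± 0.36 (SD, n = 5) for St18 minus Myt1 and KO arrays had 1.95 ± 0.28 (SD, n = 6), the wild type reaching up to 1.56 and the KO down to 1.58. St18 minus Myt1l moved from -1.57 ± 0.38 (SD, n = 5) to -0.53 ± 0.37 (SD, n = 6), and again no array of one group reached the other (-1.18 against -0.97). These levels depend on the probes and do not say which gene is more abundant. Myt1 minus Myt1l was -2.66 ± 0.26 (SD, n = 5) and -2.48 ± 0.41 (SD, n = 6), with overlap. Within arrays the mean gap of St18 differed between the groups by 0.86 against Myt1 and by 1.04 against Myt1l. The genes were selected on the KO and wild type signal of these same arrays, so these gaps are a description only.

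**Figure D2:**
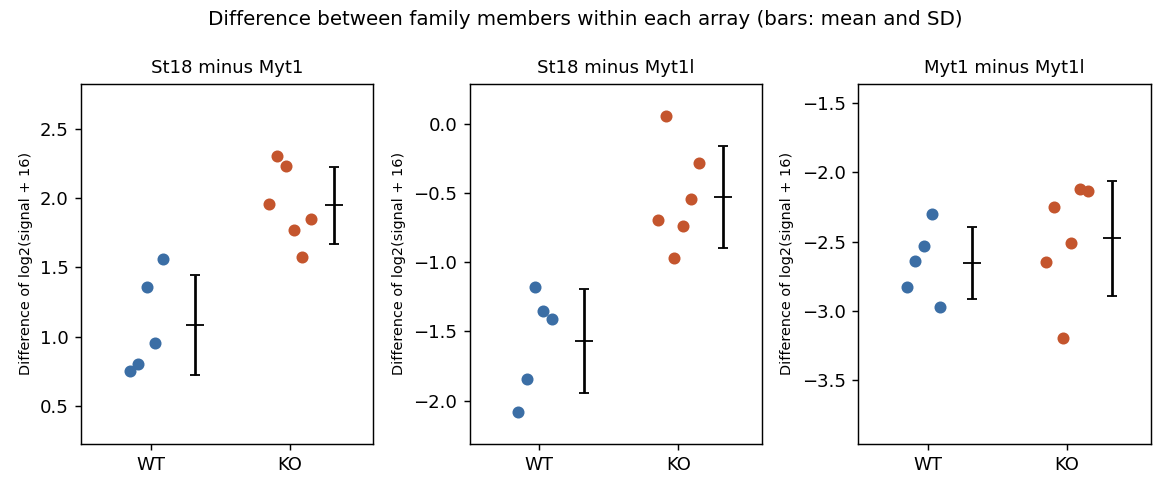
Difference in log2(signal + 16) between the brightest probe sets of 2 family members on the same array, for each pair; points are arrays, with bars for mean and SD of a group. St18 minus Myt1 rises from 1.08 to 1.95 and St18 minus Myt1l from -1.57 to -0.53 with no overlap, while Myt1 minus Myt1l overlaps.

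The size of the St18 difference varied little with the scaling, filter or arrays used. Because St18 was selected on this contrast in these arrays, this is a description only. Over 25 alternatives the log2 difference of St18 ran from 0.89 to 1.17, and leaving out 1 array at a time gave 1.01 to 1.14. That of Myt1 ran from 0.037 to 0.44; it was 0.35 in males only and 0.44 without KO 2 and KO 3, the arrays of highest GAPDH 3'/5' ratio. Myt1l ran from -0.16 to 0.15 and was negative in 9 of the 25. The lowest values came from scaling on spiked hybridization controls (St18 0.89, Myt1 0.037, Myt1l -0.16), which moved the median of all probe sets from 0.047 to -0.12. On the array median and after quantile normalization Myt1l had -0.022 and -0.031.

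**Figure D3:**
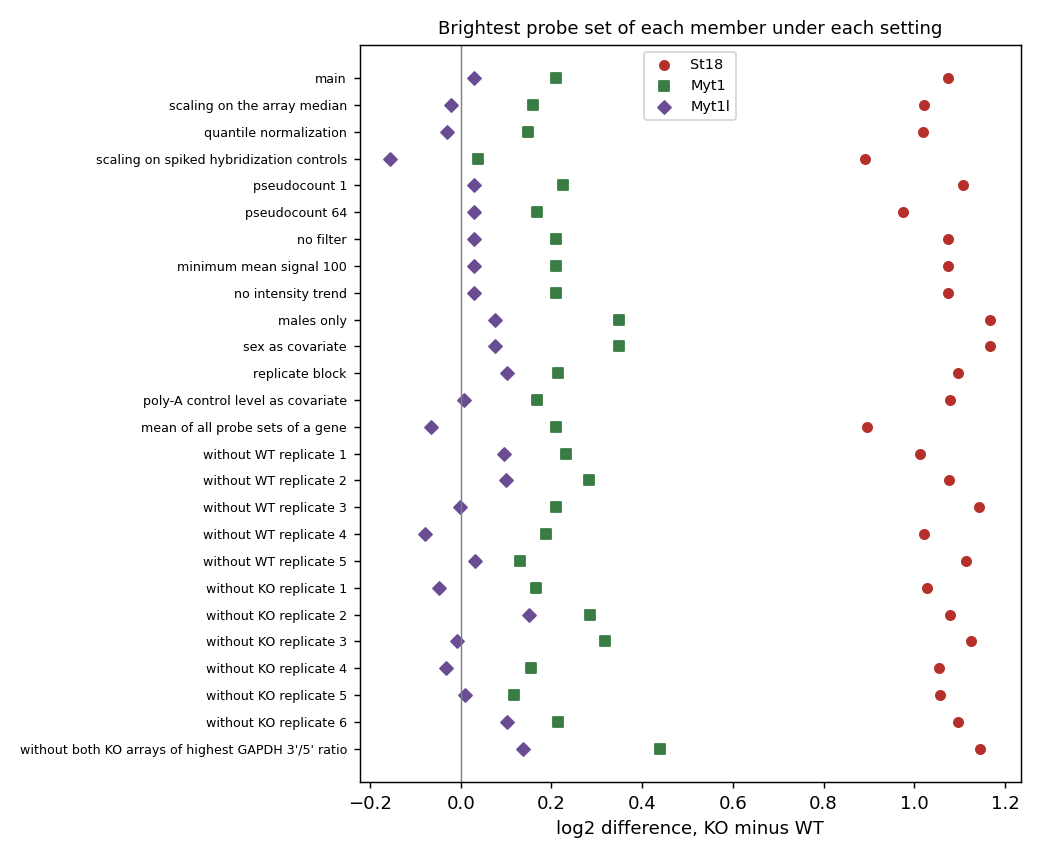
Log2 difference (KO minus wild type) of the brightest probe set of each member under the reported setting (top row, main) and 25 alternatives; each point is 1 fit. St18 lies between 0.89 and 1.17 throughout, Myt1 between 0.037 and 0.44, and Myt1l on both sides of 0.

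Arrays also differed in the signal of poly-A controls added before labelling. Among the arrays where these were higher (2 wild type, 3 KO), St18 read 273 to 329.3 in wild type and 645.7 to 752 in KO on its brighter probe set, a log2 difference of 1.21. Among the others (3 and 3) it read 279.4 to 397.7 and 585.8 to 824.5, a difference of 0.98. On the dimmer St18 probe set these differences were 0.69 and 0.74. The St18 difference was of similar size in both sets of arrays. St18 was selected on this contrast over these same arrays, so nothing is read from that. For Myt1 the corresponding values were 0.25 and 0.10, and for the brightest Myt1l probe set -0.23 and 0.20, of opposite sign.

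Within the KO group the values of St18 in females lay under those in males, which the number of arrays does not allow to pass a test. The KO females read 585.8 and 645.7 on the brighter probe set and the KO males 690.8 to 824.5, a female minus male difference of -0.28 on the log2 scale (exact two-sided permutation test, n = 2 and 4, p = 0.0667). With 15 ways to divide 6 arrays this is the smallest p the design allows, and it was 0.2 when adjusted over the 3 genes. Both females also gave the lowest KO values on the dimmer probe set (79.4 and 79.2). For Myt1 the difference was -0.42 (exact permutation test, p = 0.267) and for Myt1l -0.14 (exact permutation test, p = 0.867). KO 3, a female, also had the highest GAPDH 3'/5' ratio, and no wild type female was measured, so that sex and genotype could not be separated further. Among males alone, the St18 difference between KO and wild type was 1.17.

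How the members vary among animals of the same genotype was not used to choose them. After subtracting each group mean, the residuals of St18 and Myt1 over the 11 arrays had a Pearson r of 0.36 and a Spearman rho of 0.39 (exact permutation within groups, p = 0.263 and 0.248; adjusted over 3 pairs, 0.394 and 0.372). Those of St18 and Myt1l had r = 0.21 and rho = 0.23 (exact permutation, p = 0.525 and 0.514; adjusted, 0.525 and 0.514). Those of Myt1 and Myt1l had r = 0.47 and rho = 0.59 (exact permutation, p = 0.198 and 0.0930; adjusted, 0.394 and 0.279). St18 and Myt1 had r = -0.26 within the wild type and 0.79 within the KO arrays, which were not tested separately. Each pair had a negative r under another scaling: after scaling on the array median it was -0.11 for St18 and Myt1l and -0.030 for Myt1 and Myt1l, and after quantile normalization -0.13 for St18 and Myt1 and -0.019 for Myt1 and Myt1l. No pair passed, so no covariation within genotypes was detected with 11 arrays. Without the 2 arrays farthest from the median of the first gene (WT 3 and KO 3 for St18, KO 3 and KO 5 for Myt1), r was 0.20, 0.45 and 0.77 for the pairs in this order.

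Part of this spread went with measures of the whole array. The residuals of Myt1 and Myt1l had r = 0.68 and 0.75 with the log2 median signal of the array, and St18 had 0.22. With the GAPDH 3'/5' ratio they had -0.78, -0.31 and -0.60. The part of these measures in the spread was not tested. The 4 dimmer Myt1l probe sets followed the brightest with residual r of 0.26 to 0.71, and the dimmer St18 probe set followed the brighter with 0.45.

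For each member the genes of most similar residuals were sought among the brightest probe sets of 11456 genes with a mean signal of at least 100. Residuals of St18 were most like those of Ypel1, Sytl4 and Ctr9 (Pearson r of 0.92, 0.91 and 0.91 over 11 arrays). None of these passed the test between the groups (log2 differences of -0.013, 0.21 and -0.17; limma, adjusted p of 0.933 to 0.997). Myt1 was most like Zdhhc13, Neto2 and Gtf2e1 (r of 0.95, 0.95 and 0.94), and Myt1l was most like Enc1, Skp2 and Otx2os1 (0.98, 0.98 and 0.97). Enc1, an actin-binding protein of the nervous system, rose by 0.85 ± 0.16 (SE; limma, adjusted p = 0.0199), and passed in 19 of 25 alternatives, but not without WT 3, WT 4, WT 5 or KO 4, after scaling on spiked controls (adjusted p = 0.0555) or with no intensity trend (adjusted p = 0.0912). These are the highest of many correlations over arrays that share scaling and RNA quality.

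The nearest protein-coding genes on either side of each member were read in the same fit. Pcmtd1, which follows St18, had 538 ± 67.3 (SD, n = 5) and 630 ± 133 (SD, n = 6), a log2 difference of 0.20 ± 0.16 (SE; limma, adjusted p = 0.943). Alkal1, which precedes St18, had no probe set naming it alone. The neighbours of Myt1 (Oprl1 and Pcmtd2) had log2 differences of 0.28 and 0.13, and those of Myt1l (Eipr1 and Pxdn) -0.079 and 0.22 (limma, adjusted p of 0.933 to 0.987). None of the 5 measured neighbours passed.

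Genes of the pathways in which the family acts were taken from 4 lists, each gene by its brightest tested probe set. Among 14 measured proneural and neuronal differentiation factors 3 rose, 0 fell and 11 did not pass, and 8 had an unadjusted p under 0.05. Over all tested probe sets 0.244% passed with a higher KO signal, and 2330 of 33662 had an unadjusted p under 0.05. The median log2 difference of the list was 0.30, against 0.047 over all tested probe sets. The 3 that rose are basic helix-loop-helix factors of OSN precursors. Neurod4 rose by 1.29 ± 0.26 (SE; limma, adjusted p = 0.0285), from 2.7 to 34.5 on the wild type arrays to 43.2 to 99.8 on the KO arrays. The wild type mean of 20.3 lay near the minimum signal, so that the size depended on the added constant: it was 2.01 with a pseudocount of 1, where it did not pass (adjusted p = 0.0909), and 0.67 with 64, and it did not pass with no filter (adjusted p = 0.0600). Neurog1 rose by 0.91 ± 0.19 (SE; limma, adjusted p = 0.0364) and read 304.5 to 396.7 and 421.4 to 1051.8. Neurod1 rose by 0.66 ± 0.13 (SE; limma, adjusted p = 0.0214) and read 1353.7 to 1615.4 and 1838.9 to 3161.2. None of these 3 overlapped between the groups, a state found in 1.29% of all tested probe sets. In each, 1 of 2 tested probe sets passed.

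These 3 calls lay near the threshold. None of the 14 factors passed without WT 1, WT 3, WT 4, WT 5 or KO 4, each left out singly, and 1 passed after scaling on spiked controls (Neurod4). Without KO 2 and KO 3, 4 passed. Of the factors that did not pass, Nhlh2 had a log2 difference of 0.93, Neurod6 0.88 and Runx1t1 0.68 (limma, adjusted p of 0.112, 0.330 and 0.406). Insm1, a zinc finger factor of neuronal and endocrine precursors, had -0.025 ± 0.15 and Nhlh1 0.10 ± 0.13 (SE; limma, adjusted p of 0.995 and 0.976).

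Corepressor genes whose products bind Myt proteins did not pass in limma, 0 of 12, of which 1 had an unadjusted p under 0.05. The scaffold proteins Sin3a and Sin3b had log2 differences of -0.023 and -0.17, the deacetylases Hdac1 and Hdac2 0.18 and -0.32, the demethylase Kdm1a 0.20 and its partner Rcor1 -0.44 (limma, adjusted p of 0.456 to 0.996). After scaling on spiked controls Rcor1 alone passed, at -0.63 (adjusted p = 0.0396). The median of the list was 0.033.

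Notch pathway and progenitor genes, which neuronal factors hold down as neurons form, gave 0 of 19 calls, with 2 at an unadjusted p under 0.05. These were Hes5 and Hey2, effectors of Notch signals. Hes5 had 50.4 ± 16.3 (SD, n = 5) and 97.6 ± 20.4 (SD, n = 6), a log2 difference of 0.79 ± 0.19 (SE; limma, adjusted p = 0.0964), and passed in 3 of 24 alternatives, while its other probe set had 0.32 (limma, adjusted p = 0.893). Hey2 had 0.87 ± 0.31 (SE; limma, adjusted p = 0.447) and passed in 2 of 25. Of the 19 log2 differences 15 were positive and 4 negative, against 20343 and 13319 over all tested probe sets. The 4 negative ones were Hes1 (-0.15), Id1 (-0.27), Id3 (-0.19) and Rest, the repressor of neuronal genes (-0.093). Among the positive ones Notch3 had 0.27, Notch2 0.22, Notch1 0.17 and Sox2 0.063. The median of the list was 0.14, and it was -0.045 after scaling on spiked controls.

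Endocrine lineage factors and secretory granule genes, the setting in which Myt1 and St18 are known from the pancreas, gave 0 of 11 calls, with 3 at an unadjusted p under 0.05 and a median of -0.014. Chga, a granule protein, had 1626 ± 194 (SD, n = 5) and 1145 ± 146 (SD, n = 6), a log2 difference of -0.50 ± 0.12 (SE; limma, adjusted p = 0.0932), which passed in 3 of 25 alternatives. Scgn, a calcium-binding protein, had -0.51 (limma, adjusted p = 0.512). Pcsk1n, the remaining one of these 3, went the other way, with 0.48 (limma, adjusted p = 0.572). Of the 11 log2 differences 5 were positive and 6 negative. The endocrine factors Neurog3, Pax4 and Nkx2-2 lay below the minimum signal.

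**Figure D4:**
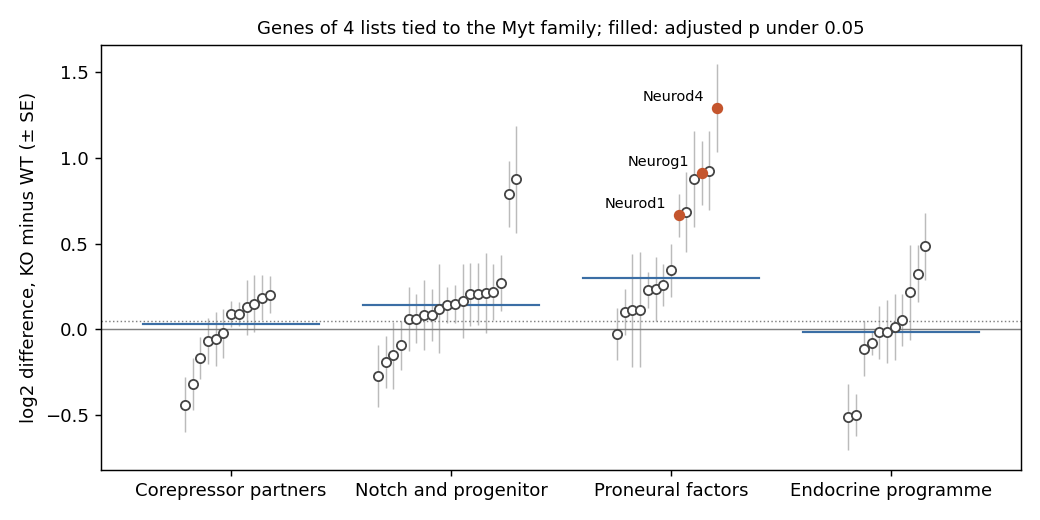
Log2 difference with its limma SE, KO minus wild type, for the measured genes of 4 lists tied to the Myt family; filled points have an adjusted p under 0.05, blue lines are list medians and the dotted line is the median of all tested probe sets (0.047). Neurod1, Neurog1 and Neurod4 (0.66, 0.91 and 1.29) are the filled points.

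Markers of some cell types in the dissected tissue also differed between the groups. Of 12 mature OSN markers 5 fell (Stoml3, Cnga4, Umodl1, Gng13 and Gnal, by 0.69 to 1.21 on the log2 scale), 0 rose and 7 did not pass. All 12 log2 differences were negative, with a median of -0.51, and 8 had an unadjusted p under 0.05. Over all tested probe sets 71 of 33662 passed with a lower KO signal and 82 (0.244%) with a higher one. Umodl1 did not pass without WT 1, WT 2, WT 3 or WT 5. Gnal passed on 1 of 3 probe sets and Gng13 on 1 of 2, and neither passed when the probe sets of a gene were averaged (-0.48 and -0.53; limma, adjusted p of 0.422 and 0.216). With the replicate number as a block, Stoml3 alone of the 5 passed. The summed signal of all 12 mature OSN markers was 20798 to 26121 in wild type and 14796 to 18223 in KO. Of 4 erythroid markers 2 rose, the embryonic globins Hbb-y and Hbb-bh1. Hbb-y read 56.7 to 117.4 in wild type and 306.4 to 678.4 in KO, and Hbb-bh1 read 2.2 to 51.9 and 64.4 to 99.6. The other 2 erythroid markers, Alas2 and Slc4a1, had 0.17 and 0.34 (limma, adjusted p of 0.943 and 0.874). The sums over all 4 erythroid markers were 819 to 1255 and 1260 to 1711. Of 14 immature OSN markers 1 rose, Stmn4, a stathmin that binds tubulin, by 1.48 ± 0.20 (SE; limma, adjusted p = 0.000857), while Crmp1, a regulator of growing axons, had 0.33 (adjusted p = 0.668). Dcx and Gng8 of the same list had -0.25 and -0.21 (limma, adjusted p of 0.868 and 0.900). Of its 14 log2 differences 11 were positive and 3 negative, with a median of 0.048, against 0.047 over all tested probe sets. The part of any of these cell types in the St18 difference was not tested.

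For myelin and ensheathing glia 0 of 11 markers passed, with 4 at an unadjusted p under 0.05, a median of 0.31 and sums of 9411 to 14912 and 10469 to 21678. Fabp7, a fatty acid binding protein of these glia, had a log2 difference of 0.86 ± 0.29 (SE; limma, adjusted p = 0.405), and Cnp, an enzyme of myelinating cells, had 0.48 (adjusted p = 0.603). For proliferation 0 of 13 passed, with 0 at an unadjusted p under 0.05, and sums were 13877 to 17159 and 12012 to 20710. The replication helicase subunits Mcm2 and Mcm5 had 0.41 and 0.24 (limma, adjusted p of 0.806 and 0.924). For sustentacular cells 0 of 5 passed (1 unadjusted; sums of 24198 to 27094 and 23369 to 28354), and the cytochromes P450 Cyp1a2 and Cyp2g1 had -0.46 and -0.12 (limma, adjusted p of 0.712 and 0.941). For horizontal basal cells 0 of 5 passed (1 unadjusted; 1593 to 2294 and 1215 to 2327). That 1 was the keratin Krt15, which read 192.3 to 481.5 in wild type and 30.6 to 175.4 in KO with no overlap, a log2 difference of -1.22 ± 0.32 (SE; limma, adjusted p = 0.134). It passed after scaling on spiked controls (adjusted p = 0.0239) and with the replicate number as a block (adjusted p = 0.0217), and the keratin Krt14 had -0.079 (adjusted p = 0.987). For macrophages 0 of 7 passed (0 unadjusted; 3830 to 5240 and 3976 to 6651), and Tyrobp and Cd68 had 0.27 and 0.23 (limma, adjusted p of 0.901 and 0.924). The sums of these 5 lists overlapped between the groups.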

How the data were processed

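Total RNA from MOE was labelled with biotin after 2 rounds of amplification and hybridized to Affymetrix mouse expression arrays. The authors deposited intensities, summarised over the probes of each set, and scaled them linearly to GAPDH in GCOS (version not given in the sources used here); detection calls were not used here. Groups, replicate numbers and sex came from the labels, which give no litter or labelling date. Probe sets were named from the platform annotation, checked through Entrez identifiers against RefSeq (GRCm38.p6), which changed 0 symbols; neighbours came from the same table.

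Control probe sets (64) and those whose mean over all arrays lay under 20 were left out. The remaining 33662 were compared as log2(signal + 16), KO minus wild type, by linear models in limma 3.58.1 under R 4.3.3 (lmFit, then eBayes allowing for a trend of variance with intensity, no covariate), with Benjamini-Hochberg adjusted p-values at a threshold of 0.05. The fit was tested on simulated data. P-values measure the spread between preparations, and the number of arrays limits the precision. For a gene in a list the brightest of its tested probe sets was read. Correlations used residuals from the group means with all 86400 orders within groups.

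The members and the 12 lists were chosen with earlier results of these data known. Named were the members and Bcl11b, the nearest protein-coding neighbours, the 3 genes of most similar residuals for each member, and in each list the genes past the threshold and the 2 of smallest p; further list genes were named as examples after their values were seen. Alternatives were 3 other scalings, pseudocounts of 1 and 64, no filter and a minimum of 100, no trend, males only, sex, replicate number or poly-A control level as a term (arrays divided at the widest gap of these controls), averaging a gene's probe sets, and each array left out. Leaving out KO 2 and KO 3 together was chosen after seeing the data.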

Additional observations from a re-analysis of the deposited data

Results flagged for a closer look

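On 1 of the 5 Myt1l probe sets (1421175_at), WT 4 read 245.1, while the other wild type arrays read 370.2 to 420.9. Its gap to the nearest of them was 0.76 of the range of the group on the log2 scale, above the critical value of 0.71 for 5 arrays. WT 4 also had the lowest median signal of all arrays (56.6). Chance alone gives such a gap in about 1 in 20 groups, and 18 groups of member values were examined. No St18 or Myt1 value met this rule.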

How the results depend on the processing

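The log2 difference of St18 was positive in all 25 alternatives, and since the gene was selected on this contrast nothing is read from that. The counts over all probe sets moved more. Against 153 (82 higher, 71 lower), quantile normalization gave 293 (173 lower), scaling on spiked controls 319 (261 lower), the poly-A control level as a term 107 lower and sex as a term 44 lower. Without KO 2 and KO 3 there were 284 (204 higher). Calls higher in KO made up 53.6% of all, and 48.4%, 41.0% and 18.2% after scaling on the array median, quantile normalization and spiked controls. Leaving out single arrays gave 85 to 213 calls, 49 to 128 higher and 36 to 85 lower, and 7 to 14 calls in the 12 lists against 11.

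With the replicate number as a block there were 92 calls (30 lower) and 6 in the lists, and St18 had 1.10. Residuals of arrays with the same number correlated at -0.28 to 0.0085, and no wild type array correlated best with the KO array of its number, so the numbers were not taken as pairs.

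Within-group correlations turned sign after scaling on the array median for St18 and Myt1l (-0.11) and for Myt1 and Myt1l (-0.030), and after quantile normalization for St18 and Myt1 (-0.13) and for Myt1 and Myt1l (-0.019). The difference between KO females and males in Myt1l was 0.023 after quantile normalization. The causes were not tested. Dim probe sets, as the second one of Myt1, gave no usable value.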
